A study of Mus musculus with 33 samples.

Results

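The 10 genes described here are those by which killer lymphocytes are usually recognised: Gzma, Gzmb, Gzmk, Prf1, Nkg7, Ifng, Eomes, Tbx21, Ncr1 and Klrb1c. They were taken from the table of normalised read counts by gene symbol. The rule uses no measured value, but the genes and the lists below were chosen with earlier results of these data known. Each symbol had exactly 1 row of the 56414 in the table. All 10 passed the filter on low values under both tissue labels. The samples were spleens and lymph nodes of tumour-free C57Bl/6 mice, which per the study's methods were female and 6 to 15 weeks of age. Treated mice drank 0.5% nicotinamide (NAM, the amide form of vitamin B3) in water for 1 day, 3 days or 14 days, and the others were untreated. Libraries labelled spleen numbered 20, with 5 untreated and 5 at each duration. Libraries labelled lymph node numbered 13: 3 untreated, then 2 at 1 day, and 4 each at 3 and at 14 days. The labels name no genotype beyond the strain, and do not say whether a library came from 1 mouse or a pool, or whether the 2 tissues came from the same mice, so p-values measure the spread between these libraries.

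The tissue labels went against the tissues' own marker genes in all 33 libraries. Glycam1, a mucin of the high endothelial venules through which lymphocytes enter lymph nodes, read 108167 to 214210 in spleen-labelled tissue and 1.59 to 12.4 in lymph node-labelled tissue. Spic, the transcription factor of splenic red pulp macrophages, read 774 to 1295 in spleen-labelled tissue and 6117 to 10491 in lymph node-labelled tissue. The names "labelled spleen" and "labelled lymph node" are therefore used throughout, and the change with NAM was tested within a label, where a swap of the tissue names would leave every comparison the same. Whole reads assigned to genes ranged from 18325061 to 54830743 per library in spleen-labelled tissue and from 30424968 to 46733974 in lymph node-labelled tissue. Some libraries stood apart. The summed level of 5 adipocyte genes ran from 18025 to 272711 in spleen-labelled tissue, against 350 to 1443 in lymph node-labelled tissue. The summed level of 6 digestive enzyme genes of the exocrine pancreas was 85088 in replicate 1 at 1 day in lymph node-labelled tissue and at most 1268 in the other libraries of that label. The summed neutrophil genes were 7377 in replicate 3 at 1 day with the spleen label and at most 1014 in the other 19 libraries of that label. On the second principal component in spleen-labelled tissue (13.6% of the variance), the 5 libraries at 1 day and 4 of 5 at 3 days lay on one side, and replicate 1 at 3 days lay on the other with the untreated and 14-day libraries.

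Natural killer (NK) cells and activated CD8 T cells kill a target cell by releasing granules at the point of contact. Perforin, the product of Prf1, forms pores in the target membrane, and the granzymes, which are serine proteases, enter and cut substrates that start cell death. NKG7 is a membrane protein of the granules, and interferon gamma (Ifng) is the cytokine these cells secrete to activate macrophages and antigen presentation. The T-box transcription factors T-bet (Tbx21) and Eomesodermin (Eomes) drive the programme, NKp46 (Ncr1) is an activating receptor of NK cells and innate lymphoid cells, and Klrb1c encodes NK1.1, the lectin-like receptor by which NK cells are gated in C57Bl/6 mice. In whole tissue, fewer cells of a type and less RNA per cell cannot be told apart.

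The rows lie on 7 chromosomes of mm10. The granzyme genes Gzma and Gzmk neighbour each other on the minus strand of chromosome 13 (113093825 to 113100983 and 113171608 to 113225908), and Gzmb lies on chromosome 14 (56258838 to 56262260). Prf1 (61297836 to 61304263) and Ifng (118441045 to 118445894) are on chromosome 10. Ncr1 (4337723 to 4345169) and Nkg7 (43437073 to 43438248) are on chromosome 7. Klrb1c lies in the NK receptor cluster of chromosome 6 (128778487 to 128788644), Eomes on chromosome 9 (118478189 to 118487608) and Tbx21 on chromosome 11 (97098007 to 97115332). The Gzmk row spans all of Esm1, an endothelial gene on the plus strand with its own row at 113209659 to 113218104. The strand setting of the counting was not given in the sources used here, so reads of Esm1 could enter the Gzmk row, and the rows of Ifng, Eomes and Klrb1c likewise overlap an annotated gene model (Gm49751, Gm33460 and Gm44511). Klrb1c also has close relatives in its cluster, Klrb1a and Klrb1b, and how reads that fit several genes were treated was not given either.

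Promoters are shown for 3 genes: Ncr1, a receptor of NK cells, and Gzmb and Ifng, a granzyme and the cytokine with the largest estimated falls described below. Each window spans the RefSeq start (GRCm38) and is written 5′ to 3′ in the direction of the gene. The Gzmb window lies wholly upstream of its row, whose start by mm10 is at 56262260, and that of Gzmk, not shown, lies inside its longer row. Capitals mark the T-box core TCACAC and the STAT letters TTCNNNGAA, both searched on both strands.
Ncr1, chr7:4337465-4337764, plus strand: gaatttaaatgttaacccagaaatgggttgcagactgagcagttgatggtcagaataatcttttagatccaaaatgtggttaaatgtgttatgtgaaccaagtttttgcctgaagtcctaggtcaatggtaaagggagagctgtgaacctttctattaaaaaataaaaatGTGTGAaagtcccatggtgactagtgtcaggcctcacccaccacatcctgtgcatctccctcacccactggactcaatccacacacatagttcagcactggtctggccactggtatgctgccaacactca
Gzmb, chr14:56262285-56262584, minus strand: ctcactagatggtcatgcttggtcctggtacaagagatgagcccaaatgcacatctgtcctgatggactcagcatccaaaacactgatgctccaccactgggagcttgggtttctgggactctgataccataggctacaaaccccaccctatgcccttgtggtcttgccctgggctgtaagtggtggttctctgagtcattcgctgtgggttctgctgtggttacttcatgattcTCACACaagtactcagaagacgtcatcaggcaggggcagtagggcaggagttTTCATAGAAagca
Ifng, chr10:118440796-118441095, plus strand: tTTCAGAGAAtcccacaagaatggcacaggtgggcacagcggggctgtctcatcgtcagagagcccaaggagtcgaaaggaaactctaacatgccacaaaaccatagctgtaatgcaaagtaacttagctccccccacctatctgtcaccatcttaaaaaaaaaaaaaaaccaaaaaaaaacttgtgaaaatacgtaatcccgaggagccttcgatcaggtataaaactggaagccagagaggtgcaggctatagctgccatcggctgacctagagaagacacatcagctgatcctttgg
All 10 genes had such a window, and Ncr1 had 2 that overlap. TCACAC occurred in Gzmb, Gzmk, Ncr1 and Nkg7, 4 of 10 genes, and in 14.5% of the 32851 promoters in the table. TTCNNNGAA occurred in Gzmb, Ifng and Nkg7, 3 of 10, against 8.3% of all. The NFAT core GGAAA occurred in 6 of 10 against 61.3%, and the Runx core TGTGGT in 6 of 10 against 16.8%. Such short matches are descriptions of the letters in these windows.

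The first question was how the genes rank in untreated tissue. Compared per length, as whole reads per kilobase of annotated exon scaled to the library total (RPKM), Nkg7 was first under both labels, at 116 ± 13.6 (SD, n = 5) in spleen-labelled tissue and 122 ± 6.31 (n = 3) in lymph node-labelled tissue. Among spleen-labelled libraries Prf1 (15.6 ± 2.38) and Gzma (14.1 ± 2.52) came next and overlapped each other. Tbx21 (7.21 ± 1.32) and Klrb1c (6.06 ± 1.09) followed, also overlapping, then Eomes (4.04 ± 0.31), Ncr1 (3.33 ± 0.28) and Gzmb (1.74 ± 0.37), whose ranges were apart. Ifng (0.73 ± 0.31) and Gzmk (0.26 ± 0.17) were last and overlapped. Among lymph node-labelled libraries Gzma (87.4 ± 9.53) stood second, ahead of Klrb1c (17.5 ± 1.41), Prf1 (12.1 ± 1.80), Ncr1 (8.37 ± 0.32) and Tbx21 (7.25 ± 0.22). Gzmb (4.16 ± 0.67), Eomes (2.49 ± 0.30), Ifng (2.33 ± 0.36) and Gzmk (0.97 ± 0.66) closed the order, and of all neighbours only Eomes and Ifng overlapped. Reads were counted on constitutive regions whose lengths were not given, so exon length stands in for them.

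Between the labels, 4 of the 10 genes had normalised read counts whose ranges over all libraries did not overlap, and all 4 were higher in lymph node-labelled tissue. The deposited scaling was made separately for the 2 labels, so these are descriptions, and 32.2% of the 17147 rows that passed both filters had ranges that did not overlap. Of those 5527 rows 3282 were higher in lymph node-labelled tissue. Gzma ran from 298 to 865 in spleen-labelled tissue and from 1703 to 4039 in lymph node-labelled tissue. Gzmb ran from 32.3 to 104 against 137 to 244, Ncr1 from 123 to 171 against 242 to 561, and Klrb1c from 390 to 867 against 1496 to 2609. These 4 stayed apart on a scale common to the 33 libraries and in reads scaled to library totals. Prf1 (949 to 1737 against 850 to 1334), Nkg7 (2529 to 4596 against 3779 to 5153), Eomes (269 to 710 against 252 to 452) and Tbx21 (369 to 791 against 591 to 739) overlapped, as did Ifng (12.4 to 82.2 against 51.5 to 123) and Gzmk (1.73 to 85.0 against 28.7 to 85.7).

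The make-up of the cytotoxic transcripts can be read without any scaling as a ratio of 2 genes' reads inside 1 library. The ratio of Gzma to Prf1 was 0.220 to 0.498 in the 20 libraries labelled spleen and 1.82 to 3.79 in the 13 labelled lymph node, with medians of 0.357 and 2.73. The ratio of Klrb1c to Nkg7 was 0.117 to 0.191 against 0.385 to 0.658. Both were higher in every library labelled lymph node than in any labelled spleen. Each divides a gene whose ranges did not overlap between the labels by a gene whose ranges did, so it is not a separate result. How often other pairs of genes separate between the labels was not counted. The ratio of Eomes to Tbx21 went the other way, at 0.698 to 1.12 in spleen-labelled tissue and 0.396 to 0.639 in lymph node-labelled tissue. Gzma to Gzmb, at 3.48 to 12.7 against 11.6 to 22.0, overlapped. For the spleen label Eomes to Tbx21 was 0.954 ± 0.127 in untreated libraries (SD, n = 5 in each group). After NAM it was 0.758 ± 0.067 (1 day), 0.921 ± 0.156 (3 days) and 0.986 ± 0.082 (14 days). The ranges at 1 day and in untreated libraries overlapped, and this difference was not tested.

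**Figure D1:**
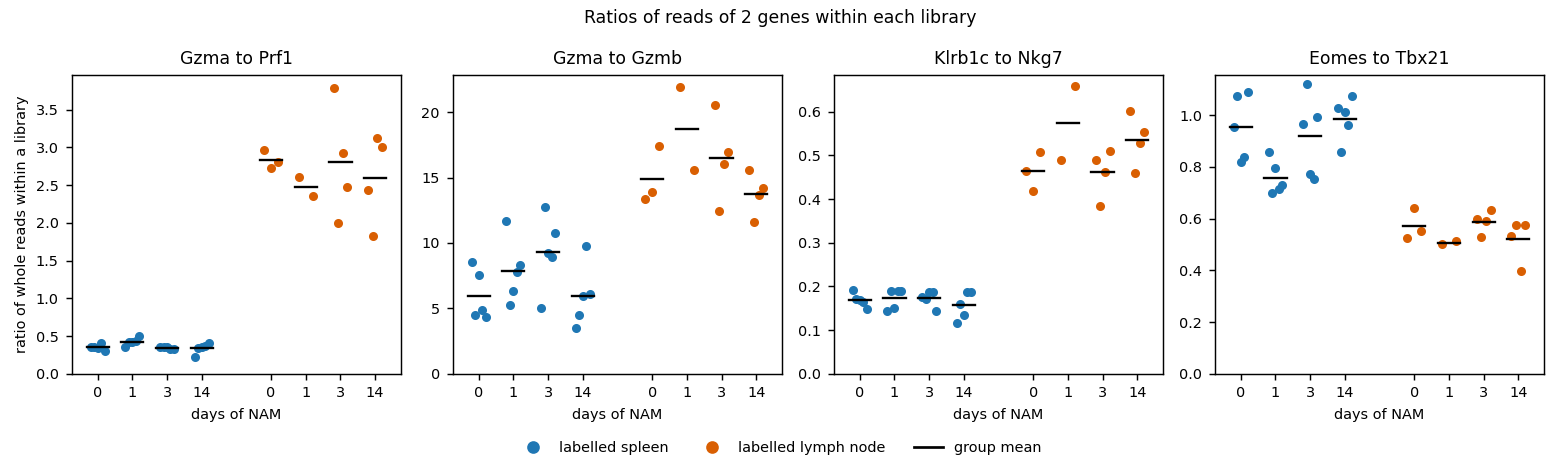
Ratio of whole reads of 2 genes within each library, by days of NAM (0 is untreated), 1 point per library with the group mean as a line, on linear axes from 0. Gzma to Prf1 and Klrb1c to Nkg7 are higher, and Eomes to Tbx21 lower, in all 13 libraries labelled lymph node than in any of the 20 labelled spleen. How often other pairs of genes separate was not counted.

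The main question was whether NAM changed these genes. With limma on log2(normalised count + 1) and adjustment over all rows tested, 0 of the 10 genes passed an adjusted p of 0.05 in any of the 6 comparisons with untreated mice. edgeR and DESeq2 on the whole reads also called 0 of 10 in each. In spleen-labelled tissue the test called 16.6% of 18243 rows at 1 day, 5.55% at 3 days but 0% at 14 days, where 510 rows had an unadjusted p under 0.05 and DESeq2 called 1. For the lymph node label it called 1.21% of 18215 rows at 1 day, then 1.24% at 3 days, then 0.791% at 14 days. At an unadjusted p under 0.05 stood 1 gene at 1 day (Eomes) and 1 at 3 days (Gzmb) in spleen-labelled tissue, and 3 at 1 day (Gzmb, Ifng and Klrb1c), 1 at 3 days (Nkg7) and 1 at 14 days (Ifng) in lymph node-labelled tissue. Over all rows 5628 and 4007 of 18243 stood under that p at 1 and 3 days with the spleen label, a larger share than 1 of 10. With the lymph node label 2726, 2694 and 2157 of 18215 did at 1, 3 and 14 days. The median log2 fold change of the 10 genes lay between -0.080 and 0.039 over the 6 comparisons, and that of all rows between -0.00048 and 0.0054.

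The 95% intervals are not adjusted for the number of rows, so they give the precision of each estimate and not the limit of calling. In 53 of the 60 fold changes the 95% interval stayed within 1 log2 unit of 0, that is within a 2-fold change either way. The other 7 belonged to Gzmk, Gzmb and Ifng, the 3 genes with the fewest reads. The narrowest were those of Nkg7 and Tbx21 at 3 and 14 days in lymph node-labelled tissue (0.20 log2 units to either side), and the widest those of Gzmk in spleen-labelled tissue (1.28). Counts of groups that did not overlap were 0 of 10 genes in each comparison in spleen-labelled tissue, where 11.9%, 5.06% and 0.548% of rows did not overlap at 1, 3 and 14 days. In lymph node-labelled tissue 3 of 10 genes did not overlap at 1 day, where 32.6% of rows did not, and 0 of 10 at 3 and 14 days, where 15.3% and 11.5% did not. A group of 2 libraries separates often by itself, and 3 of 10 is near that background.

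**Figure D2:**
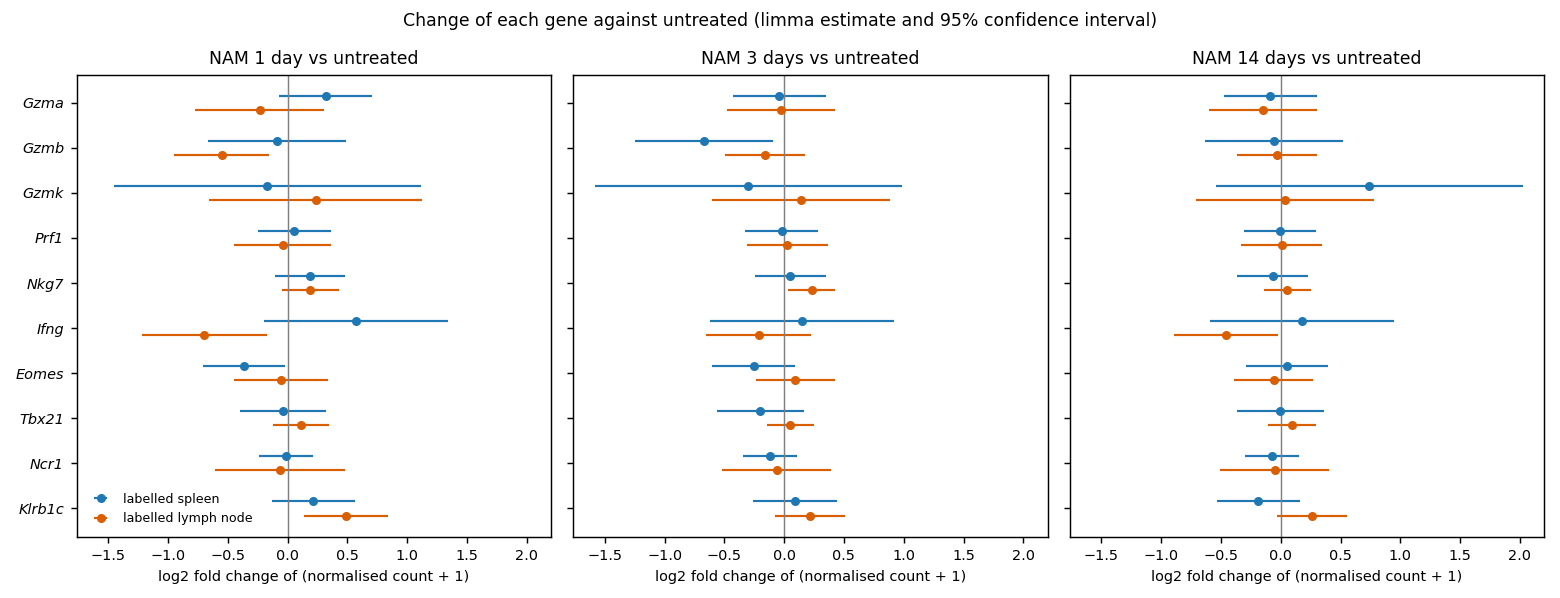
Log2 fold change of each gene against untreated with its 95% confidence interval from limma, in a panel per duration, with the 2 labels in 2 colours. No gene passed an adjusted p of 0.05, and the widest intervals are those of Gzmk in spleen-labelled tissue.

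Among the granzymes, Gzmb, whose product cuts and activates caspases in the target cell, had the largest estimated fall in spleen-labelled tissue. In untreated libraries its normalised read count was 60.6, 89.4, 68.2, 93.2 and 68.1. At 3 days of NAM it was 76.7, 32.3, 47.3, 51.9 and 36.0, so 4 of 5 libraries lay below every untreated library and replicate 1 lay among them. The log2 fold change was -0.67 ± 0.28 (SE), with an adjusted p of 0.157 (0.00415 to 0.332 over the alternatives). Replicate 1 at 3 days is the library that sat with the untreated ones on the second component. That component was computed from the same libraries, so it gives no separate ground for leaving this one out. Without replicate 1 at 3 days the log2 fold change was -0.85, with an adjusted p of 0.0422. With library weights, which give a deviating library less influence, Gzmb was also called, with a log2 fold change of -0.97 and an adjusted p of 0.00415. Both settings raised the calls among all rows, from 1013 to 2782 without replicate 1 and to 4722 with library weights. At 1 day Gzmb read 36.6, 76.4, 78.7, 75.0 and 104, and at 14 days 89.7, 79.9, 83.3, 39.6 and 81.9, both overlapping the untreated libraries.

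Among lymph node-labelled libraries Gzmb was lower at 1 day than in every untreated library. It read 208, 244 and 178 untreated and 145 and 139 at 1 day. The log2 fold change was -0.55 ± 0.19 (SE), which did not pass the test (adjusted p = 0.174, 0.0993 to 0.435 over the alternatives). At 3 days it read 197, 137, 228 and 195, and at 14 days 185, 210, 194 and 228, so the low level at 1 day was not seen at 14 days. The contrast of 14 days with 1 day gave a log2 fold change of 0.52 ± 0.18 (SE) and an adjusted p of 0.213.

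Gzma, a granzyme held by resting NK cells, read 519, 399, 516, 451 and 298 in untreated libraries labelled spleen and 426, 402, 501, 586 and 865 at 1 day. Replicate 5 at 1 day was far above the others, and the groups overlapped (log2 fold change 0.32 ± 0.19 SE, adjusted p = 0.257). Without that library the change was 0.145, and without untreated replicate 5 it was 0.19. At 3 and 14 days Gzma ran from 385 to 463 and from 312 to 502. For the lymph node label Gzma averaged 3089 ± 305 (SD, n = 3) untreated, 2667 ± 721 (n = 2) at 1 day, 3177 ± 1027 (n = 4) at 3 days and 2800 ± 340 (n = 4) at 14 days. None of its fold changes passed the test.

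Gzmk, a granzyme of memory-like T cells, was close to the limit of counting in spleen-labelled tissue, with 1 to 91 reads per library. There it ran from 1.73 to 20.7 untreated and averaged 8.68 ± 4.88 (SD, n = 5) at 1 day and 7.82 ± 4.14 at 3 days. At 14 days replicate 1 read 85.0 and the other libraries 6.27 to 16.1. In that library Esm1, whose row lies inside that of Gzmk, read 85.9, within the 48.5 to 94.4 of its group. In lymph node-labelled tissue untreated replicate 1 read 85.7 against 28.7 in each of the other two, and the treated libraries lay between 33.6 and 71.1. Esm1 read 486 to 935 over the libraries of that label, against 39.2 to 147 under the spleen label. Its part in the Gzmk counts was not tested.

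Prf1 and Nkg7 moved little by the main test. Among spleen-labelled libraries Prf1 read 1461, 1108, 1525, 1092 and 995 untreated and 1210, 949, 1202, 1357 and 1737 at 1 day, with overlapping ranges and a log2 fold change of 0.056 ± 0.15 (SE, adjusted p = 0.830). Nkg7 read 3510, 3057, 3967, 3068 and 2642 untreated and 3566, 2782, 3921, 3690 and 4596 at 1 day. Its log2 fold change was 0.19 ± 0.14 (SE, adjusted p = 0.393), and it was 0.11 without replicate 5 at 1 day and 0.12 without untreated replicate 5.

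The level of adipocyte genes differed between these libraries. The summed level of 5 adipocyte genes was 18025 to 92770 untreated. NAM libraries held 62772 to 272711 at 1 day, 31361 to 139490 at 3 days, then 29409 to 128947 at 14 days. In replicate 2 at 1 day, with the most adipocyte transcripts, Prf1 and Nkg7 were the lowest of their group, as were Gzma, Ifng, Eomes and Tbx21. With an adipocyte score as a covariate, an alternative added after the data were seen, Prf1 and Nkg7 were called at 1 day. The log2 fold change of Prf1 became 0.28 (adjusted p = 0.0468, 0.0468 to 0.959 over all alternatives) and that of Nkg7 0.41 (adjusted p = 0.00464, 0.00464 to 0.660). This setting called 4005 of all rows at 1 day, against 3030 without it. The covariate left the other 8 genes uncalled at 1 day and all 10 uncalled at 3 and 14 days.

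**Figure D3:**
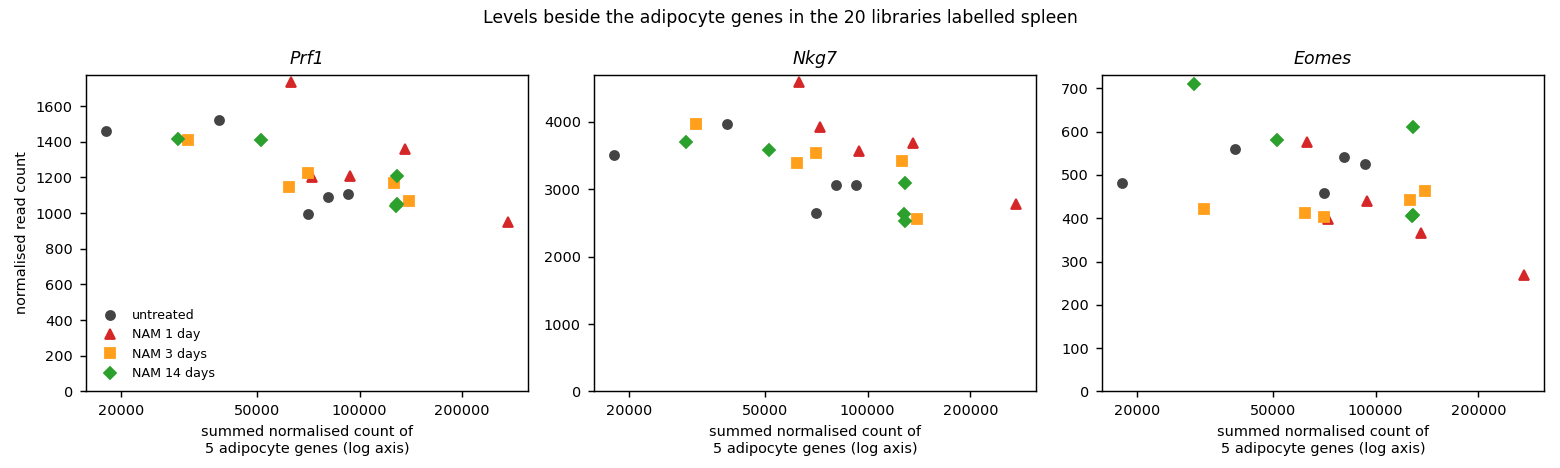
Normalised read count of Prf1, Nkg7 and Eomes (linear axes from 0) against the summed normalised read count of 5 adipocyte genes (log axis) in the 20 libraries labelled spleen, 1 point per library, with groups by shape and colour. The library with the highest adipocyte sum, 272711, has the lowest Eomes level, 269, and the lowest Prf1 level, 949.

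Among lymph node-labelled libraries, where the adipocyte sum never exceeded 1443, Nkg7 read 3779, 4101 and 3891 untreated and 4777, 3883, 4993 and 4814 at 3 days. At 3 days replicates 1, 3 and 4 lay above every untreated library and replicate 2 lay among them. The log2 fold change was 0.23 ± 0.094 (SE) with an adjusted p of 0.267 (0.139 to 0.498 over the alternatives). At 14 days Nkg7 read 4330, 4077, 3889 and 4028, which overlapped the untreated libraries. Prf1 averaged 1095 ± 152 (SD, n = 3) untreated, 1068 ± 214 (n = 2) at 1 day, 1124 ± 214 (n = 4) at 3 days and 1110 ± 203 (n = 4) at 14 days. Its 3 log2 fold changes lay between -0.041 and 0.026.

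Ifng was the gene whose estimates differed most between the labels at 1 day. For the spleen label it read 34.6, 41.4, 20.8, 34.8 and 12.4 untreated and 43.3, 28.9, 32.6, 38.9 and 62.4 at 1 day. The groups overlapped, and the log2 fold change was 0.57 ± 0.37 (SE, adjusted p = 0.309). It was 0.31 without untreated replicate 5. For the lymph node label it read 91.9, 104 and 123 untreated and 81.0 and 51.5 at 1 day. Both treated libraries lay below every untreated library, with a log2 fold change of -0.70 ± 0.25 (SE) and an adjusted p of 0.191 (0.174 to 0.641 over the alternatives). It was -1.02 without replicate 1 at 1 day and -0.37 without replicate 2. The library with pancreatic enzyme genes was the higher of the 2, at 81.0. The change differed between labels by 1.26 ± 0.55 log2 units (SE), with an adjusted p of 0.227 over all rows. It did not pass, and the same test called 1.69% of 17147 rows at 1 day, 0.735% at 3 days but 0.14% at 14 days, with 0 of the 10 genes among them.

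Later levels of Ifng in lymph node-labelled tissue were 84.0, 105, 85.6 and 89.2 at 3 days and 72.9, 58.7, 105 and 75.8 at 14 days. At 14 days 3 of 4 libraries lay below every untreated library (log2 fold change -0.46 ± 0.21 SE, adjusted p = 0.395). In spleen-labelled tissue Ifng ran from 24.0 to 38.0 at 3 days. At 14 days replicate 1 read 82.2 and the others 16.6 to 32.9, and this is the library with the high Gzmk level.

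Of the T-box factors, Eomes, which sustains NK cells and memory CD8 T cells, was lower in most libraries labelled spleen early in treatment. It read 481, 525, 559, 542 and 458 untreated and 440, 269, 399, 365 and 576 at 1 day. Here 4 of 5 libraries lay below every untreated library and replicate 5 lay above every one. The log2 fold change was -0.36 ± 0.16 (SE) with an adjusted p of 0.140 (0.0355 to 0.372 over the alternatives). Without replicate 5 it was -0.50 with an adjusted p of 0.0355, without replicate 2 it was -0.22, and with the adipocyte score as covariate it was -0.20 with an adjusted p of 0.372. At 3 days Eomes read 463, 413, 404, 421 and 443, with 4 of 5 again below every untreated library (log2 fold change -0.26 ± 0.16 SE, adjusted p = 0.390). At 14 days it read 710, 406, 582, 408 and 611, on both sides of the untreated range. In lymph node-labelled tissue its fold changes lay between -0.057 and 0.091 on the log2 scale.

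Tbx21, the master factor of interferon gamma production, read 609 to 652 in untreated libraries labelled lymph node and 591 to 739 in the treated ones. Its log2 fold changes there lay between 0.051 and 0.11. Among spleen-labelled libraries it averaged 549 ± 111 (SD, n = 5) untreated, and after NAM 541 ± 150 (1 day), 475 ± 73.1 (3 days) and 547 ± 103 (14 days). All these groups overlapped.

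Of the NK receptors in lymph node-labelled tissue, Klrb1c read 1758, 1718 and 1976 untreated and 2527 and 2553 at 1 day, so both treated libraries lay above every untreated one. Its relatives did too, with Klrb1a at 241 to 268 against 179 to 204 untreated and Klrb1b at 396 to 466 against 248 to 291, and shared reads were not tested for. The log2 fold change was 0.49 ± 0.17 (SE) with an adjusted p of 0.174 (0.0237 to 0.398 over the alternatives), and it passed only when the fit held the 2 compared groups alone. At 3 days it read 2338, 1496, 2305 and 2455, and at 14 days 2609, 1874, 2056 and 2233. At each of these durations 3 of 4 libraries lay above the untreated range, and neither change passed the test (adjusted p = 0.489 and 0.495). Ncr1 in the same libraries read 440, 464 and 455 untreated and 503 and 374 at 1 day, on either side of the untreated range (log2 fold change -0.063, adjusted p = 0.944). The changes of the 2 receptors were not tested against each other.

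For the spleen label Klrb1c read 672, 521, 667, 505 and 390 untreated, 514, 531, 589, 697 and 867 at 1 day and 432, 422, 479, 473 and 578 at 14 days. Its largest contrast there was between durations, with 4 of 5 libraries at 14 days below every library at 1 day (log2 fold change -0.40 ± 0.17 SE, adjusted p = 0.129). Ncr1 had the narrowest intervals of the 10 genes under this label (0.23 log2 units to either side). It averaged 157 ± 13.8 (SD, n = 5) untreated, and after NAM 155 ± 15.2 (1 day), 144 ± 16.6 (3 days) and 149 ± 13.5 (14 days).

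**Figure D4:**
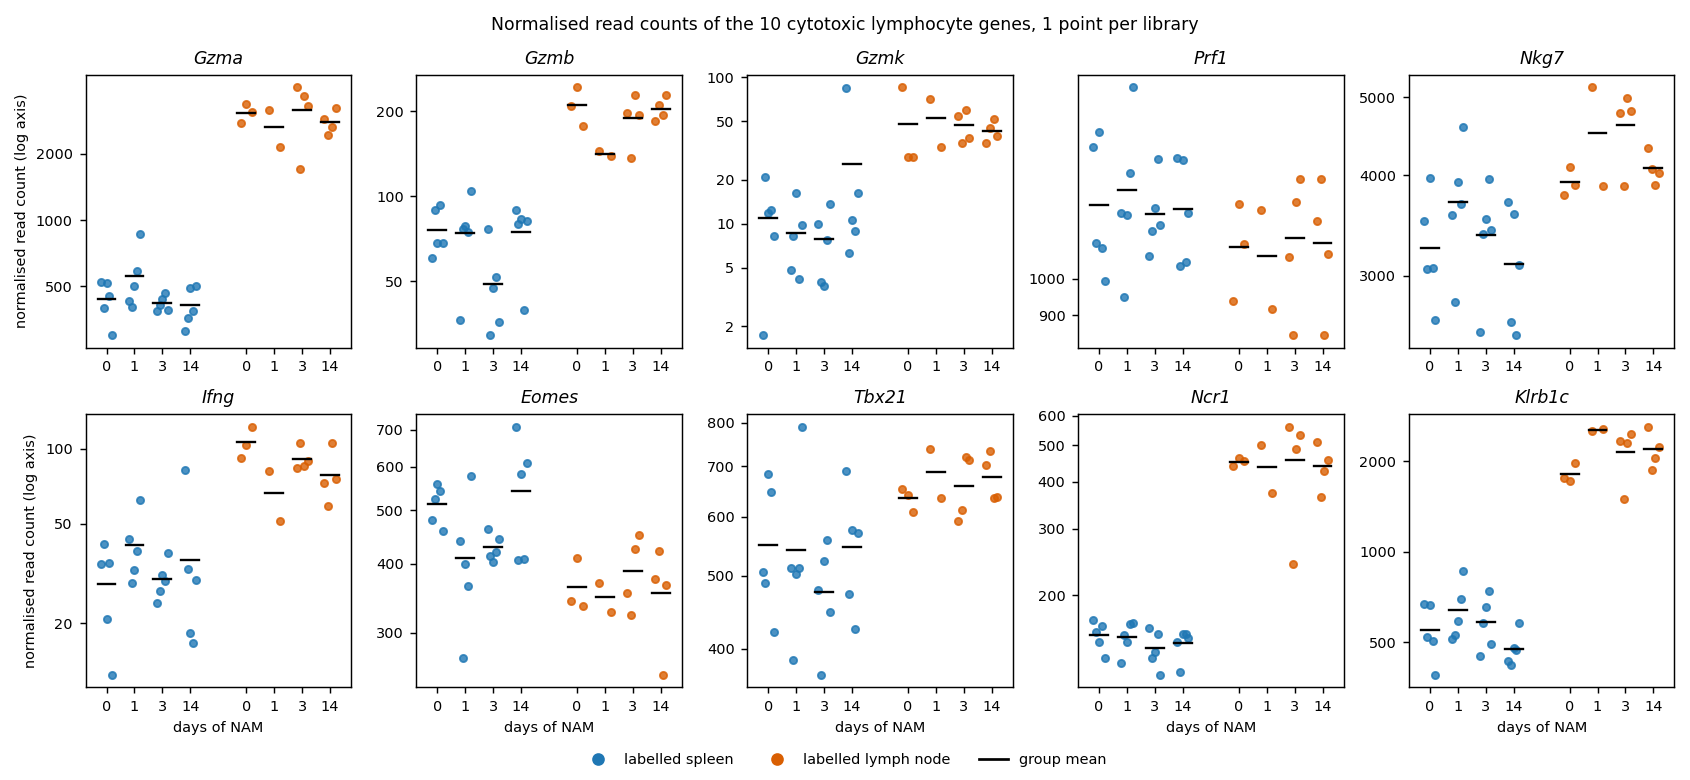
Normalised read count of each gene (log axis) by days of NAM (0 is untreated), 1 point per library with the group mean as a line. The 2 labels were scaled separately, and the treated groups overlap the untreated group of the same label except for Gzmb, Ifng and Klrb1c at 1 day in lymph node-labelled tissue.

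Between the durations themselves, 0 of the 10 genes passed in any of 6 contrasts. In spleen-labelled tissue these contrasts called 0.00548% of rows for 3 days against 1 day, 10.6% for 14 days against 1 day and 1.05% for 14 days against 3 days. Among lymph node-labelled libraries they called 0.357%, 0.401% and 0.011% of rows. The smallest adjusted p in spleen-labelled tissue was 0.117, for Eomes, which was higher at 14 days than at 1 day by 0.41 ± 0.16 log2 units (SE). With the adipocyte score as covariate Nkg7 and Klrb1c were called for 14 days against 1 day in spleen-labelled tissue. Over the settings run, the calls among all rows in that contrast ran from 943 to 3215, with 1940 in the main test.

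In some libraries most of the 10 genes were high or low within their group. Among spleen-labelled libraries replicate 5 at 1 day was the highest of its 5 libraries for 9 of the 10 genes, all but Gzmk, and untreated replicate 5 was the lowest of its group for 8. Summed T cell and CD8 T cell genes were also the highest of the group in the first (30879 and 22900) and the lowest in the second (19088 and 15498). Other libraries went both ways, such as replicate 1 at 3 days, lowest for 5 genes and highest for 3. For the lymph node label replicate 2 at 3 days was the lowest of its 4 libraries for 8 genes, with 242 for Ncr1 against 491 to 561 in the other libraries and 1703 for Gzma against 3304 to 4039. The same library was the highest of its group for Ifng (105). Its summed erythroid genes were the lowest of the group (263192 against 762076 to 1140090), as were its red pulp macrophage genes (56192 against 65994 to 78926), and its T cell genes were the highest (19208 against 15141 to 17694). The part of these in the levels was not tested. Without this library the log2 fold change at 3 days was 0.38 for Klrb1c (adjusted p = 0.108), and that of Ncr1 turned from -0.061 to 0.22 (adjusted p = 0.520).

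**Figure D5:**
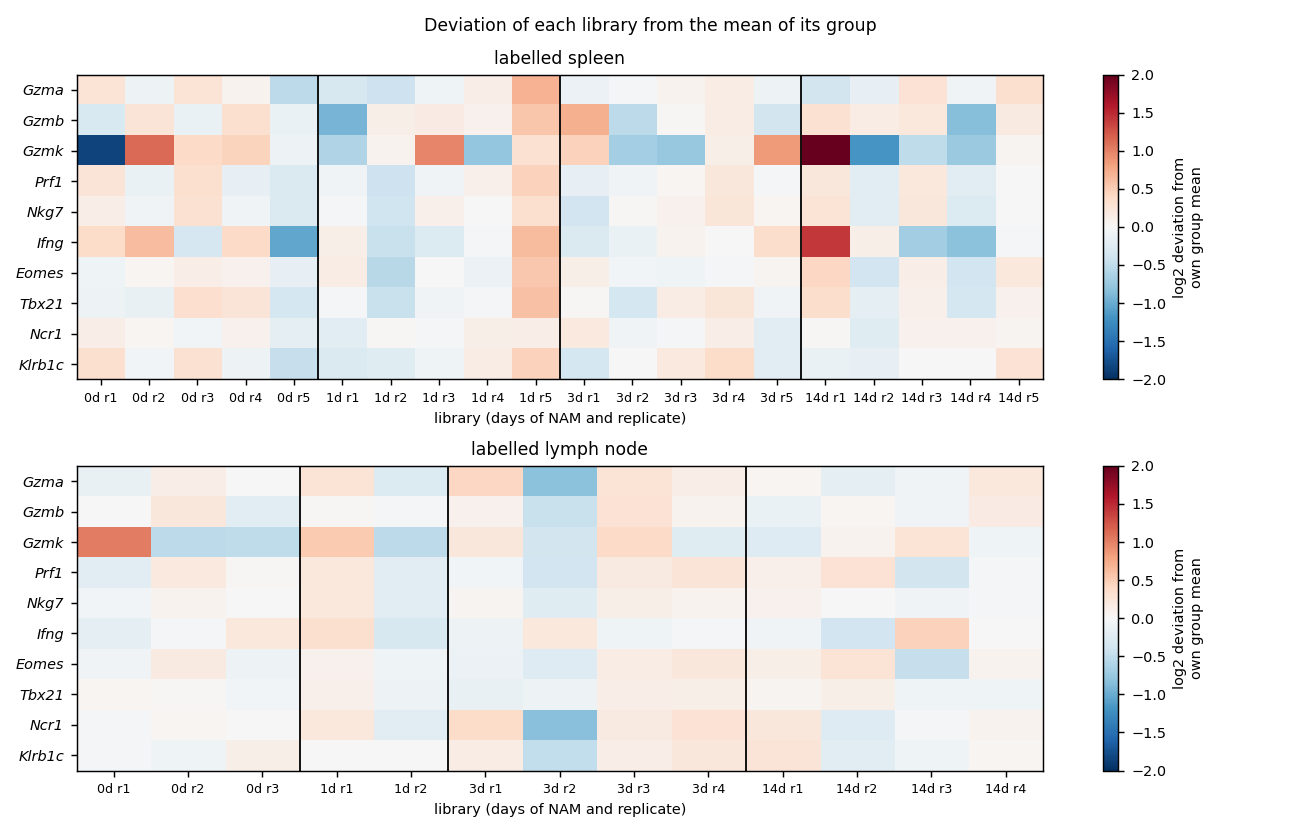
Deviation of each library from its own group mean, in log2(normalised count + 1), for the 10 genes (rows) and all libraries (columns, by days of NAM and replicate), with red above and blue below the mean. Replicate 5 at 1 day in spleen-labelled tissue is above its group for all 10 genes, and replicate 2 at 3 days in lymph node-labelled tissue is below for 9.

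The rows most like the 10 genes were ranked by Pearson's r between a row's group-centred log2 level and the mean of the 10 standardised genes, as a description over libraries that share depth and tissue make-up. For the spleen label (20 libraries, 18233 rows compared) the first 5 included Irf1 (r = 0.92), Serpina3g (0.90), Xcl1 (0.90) and Pum3 (0.88). Without the 2 libraries farthest from the median, r of the first 5 was 0.82 to 0.90. Irf1 encodes a transcription factor of the interferon response, and Xcl1 a chemokine of NK and CD8 T cells. In lymph node-labelled tissue (13 libraries) they were Gm9796 (0.94), Ackr2 (0.94), Plin3 (0.93), Sarm1 (0.89) and Kcnk5 (0.89), and without the 2 farthest libraries r was 0.68 to 0.88. No row was among the first 5 under both labels.

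The wider pathway was read from 6 lists of genes that act with the 10. In spleen-labelled tissue 13 of 84 rows were called at 1 day (8 higher, 5 lower), or 15.5%, near the 16.6% of all rows. At 3 days 9 of 84 were called (3 higher, 6 lower), or 10.7% against 5.55%, and at 14 days 0. Among lymph node-labelled libraries 3 of 86 rows were called at 1 day, or 3.49% against 1.21% of all rows, and none at 3 days, against 1.24%. Calls of these lists at 14 days with this label are not reported here. With the adipocyte score as covariate all changes described below in spleen-labelled tissue and 2 of 3 in lymph node-labelled tissue were still called, the exception being Fcgr3 (adjusted p = 0.0577). The adipocyte sum was at most 1443 under the lymph node label, so a call kept there says little about adipocytes. The pancreatic genes of replicate 1 at 1 day under that label were not adjusted for. In spleen-labelled tissue 9 changes were called whichever library was left out: Stxbp2 at 1 and 3 days, and Ifngr1, Tox, Ikzf3, Tnfsf10, Fcer1g, Runx3 and Klrk1 at 1 day. Ifngr1 at 3 days lost the call without replicate 3 of that group (adjusted p = 0.0516) and when the fit held the 2 compared groups alone (adjusted p = 0.0589). At 1 day Il15 lost it without untreated replicate 5 or NAM replicate 3, and Serpinb9 without either of these or NAM replicate 5. Cxcl10 lost it without untreated replicate 1 or 5 or NAM replicate 5, and Ctsl without untreated replicate 4 or NAM replicate 2 or 3, with adjusted p up to 0.0707 among these 4 genes. The other changes at 3 days lost it in 5 to 9 of 10 such fits, with adjusted p up to 0.140. Those at 1 day in lymph node-labelled tissue lost it in 5 of 5 fits, with adjusted p up to 0.231. Beside Ifngr1, the fit of the 2 groups alone lost Ctsl at 1 day and every named change at 3 days except that of Stxbp2, quantile normalisation lost Il15 at 1 day and Prdm1, and the fit without a filter lost Ikzf3, Cd274, Il18r1, Fcer1g and Irf8 at 3 days. edgeR lost Irf8 at 3 days. Of 16 alternatives run for Fcgr3, only the larger pseudocount, the fit of the 2 groups alone and DESeq2 kept its call. The changes of Stat4, Srgn and Fcgr3 were lost both without a filter and with quantile normalisation.

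Among granule genes (15 of 19 tested), Stxbp2, which encodes the Munc18-2 protein needed for granule fusion, fell in spleen-labelled tissue from 2115 ± 129 untreated to 1597 ± 109 at 1 day and 1666 ± 76.2 at 3 days (SD, n = 5). All 5 libraries at each time lay below every untreated library (log2 fold change -0.41, adjusted p = 0.000567, and -0.34, adjusted p = 0.00782). Serpinb9, an intracellular inhibitor of granzyme B, rose from 1130 ± 101 to 1608 ± 308 at 1 day (adjusted p = 0.0229), and the protease Ctsl rose by 0.31 log2 units. For the lymph node label Srgn, the proteoglycan that packs granzymes in the granule, rose at 1 day from 3639 ± 96.0 to 4780 ± 232 (adjusted p = 0.0435). Srgn is also abundant in myeloid granules, and the summed neutrophil genes ran from 11177 to 20537 in those untreated libraries and from 22699 to 29053 at 1 day. The median log2 fold change of the granule list was -0.063 at 1 day in spleen-labelled tissue and 0.23 in lymph node-labelled tissue.

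Among receptors and adaptors (26 rows), Klrk1, which encodes the activating receptor NKG2D, rose in spleen-labelled tissue from 299 ± 64.1 to 426 ± 47.4 at 1 day (adjusted p = 0.0170). Fcer1g, the signalling chain of Fc receptors and NKp46, fell from 4053 ± 733 to 2859 ± 420 at 1 day and 3041 ± 293 at 3 days (adjusted p = 0.00584 and 0.0426). This chain is also abundant in myeloid and mast cells, and the summed basophil and mast cell genes ran from 998 to 1838 untreated, and after NAM from 526 to 1478 (1 day) or 730 to 1450 (3 days). Other myeloid lists went the other way under this label. Summed neutrophil genes had medians of 292 untreated, 750 at 1 day and 501 at 3 days. The medians for red pulp macrophage genes were 5450, 6779 and 6267. The part of these cells in the fall of Fcer1g was not tested. In lymph node-labelled tissue Fcgr3, the Fc receptor CD16, rose at 1 day by 0.50 log2 units (adjusted p = 0.0486). Neutrophils also carry CD16, and the summed neutrophil genes of this label were given with Srgn above. Their part in the changes of Srgn and Fcgr3 was not tested.

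Among upstream cytokines and receptors (12 rows), Il15, the survival cytokine of NK and memory CD8 T cells, rose in spleen-labelled tissue from 238 ± 21.3 untreated to 336 ± 54.4 at 1 day and 355 ± 67.7 at 3 days (adjusted p = 0.0200 and 0.0257). Il18r1, a receptor chain for interleukin 18, rose from 584 ± 63.8 to 751 ± 87.7 at 3 days (adjusted p = 0.0425). Of the secreted and surface effectors (7 rows), Tnfsf10, the death ligand TRAIL, rose at 1 day from 318 ± 36.6 to 422 ± 21.3, with all 5 libraries above every untreated library (adjusted p = 0.00435).

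Among transcription factors of the lineage (12 rows), 3 fell at each early time in spleen-labelled tissue and none rose, where 16.6% of all rows were called at 1 day and 5.55% at 3 days, in both directions. At 1 day 3 of 12 is not far from that background. At 1 day these were Tox (1400 ± 185 to 875 ± 162, adjusted p = 0.00266), Ikzf3 (1951 ± 202 to 1228 ± 209, adjusted p = 0.00356) and Runx3 (658 ± 124 to 418 ± 91.5, adjusted p = 0.00868), each below every untreated library in 5 of 5. At 3 days Ikzf3, Prdm1 and Irf8 fell by 0.54, 0.47 and 0.33 on the log2 scale. Ikzf3 and Irf8 are also B cell genes, and the summed B cell genes ran from 55775 to 72856 untreated, and after NAM from 44976 to 64585 (1 day) or 51623 to 65265 (3 days). Other lists went the other way. T cell genes summed to medians of 22427 untreated, 25388 at 1 day and 25787 at 3 days. For plasmacytoid dendritic cell genes these were 8957, 10598 and 10507. The part of these cells in the falls was not tested. The median log2 fold change of the transcription factor list was -0.29 at 1 day and -0.25 at 3 days. Among lymph node-labelled libraries Stat4, which carries interleukin 12 signals, rose at 1 day by 0.39 log2 units (adjusted p = 0.0369). Summed T cell genes ran from 14898 to 15978 in those untreated libraries and from 17458 to 19286 at 1 day, and their part in the change was not tested.

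Among interferon gamma receptor and target genes (12 rows), Ifngr1, the ligand-binding receptor chain, rose in spleen-labelled tissue from 2483 ± 190 to 3454 ± 191 at 1 day and 3199 ± 382 at 3 days (adjusted p = 0.000739 and 0.0133). The chemokine gene Cxcl10 rose from 532 ± 143 to 814 ± 117 at 1 day (adjusted p = 0.0215). At 3 days Cd274, which encodes PD-L1, fell from 596 ± 54.8 to 489 ± 30.4 (adjusted p = 0.0341).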

How the data were processed

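Libraries of polyadenylated RNA (Truseq, paired 75-base reads) came from 20 samples labelled spleen and 13 labelled lymph node. The authors deposited 1 table of a linear signal, gene read counts that they had divided by DESeq2 size factors. The submitters' processing notes name STAR 2.4.0 and mm10. Reads were counted on constitutive gene regions. Values were whole multiples of 1 step (100% within 0.01 reads), which returned the whole reads. Recomputed size factors were 1.00 times the authors' under the spleen label and 0.962 to 0.972 times under the lymph node label, so the labels were scaled separately and tested apart.

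limma 3.58.1 (trend) in R 4.3.3 was fitted to log2(normalised count + 1), with the 4 groups of a label in 1 fit. Such fold changes understate those of low genes. Rows with a mean of at least 10 entered, and p-values were two-sided and adjusted by the Benjamini-Hochberg method with a threshold of 0.05. The difference between the labels was a contrast in 1 fit over both. edgeR 4.0.16 and DESeq2 1.42.0 on whole reads were alternatives, and the scripts were tested on simulated data. The members and lists were chosen with earlier results of these data known. Pathway genes named are at most 4 per list, label and comparison with the smallest adjusted p past the threshold, and likeness names the 5 rows with the highest r. 1 further gene is counted in the lists but its values are not reported here. Groups and replicate numbers came from sample titles. Replicate numbers are shared by groups, but the labels tie them to no animal or batch. Under the spleen label deviations of same-numbered libraries correlated at -0.50 to 0.47 over 30 pairs. Their mean was 0.031, against -0.0085 for 120 other pairs. Under the lymph node label the correlations were -0.11 to 0.079 over 16 pairs. Their mean was -0.014, against 0.0050 for 46 other pairs. No 2 replicates held the same values (56 pairs), and their counts differed beyond sampling noise, with a chi-square of at least 8.25 for each degree of freedom, so each library counted once. Depth per library (in the report) limits Gzmk, Ifng and Gzmb most.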

Additional observations from a re-analysis of the deposited data

Results flagged for a closer look

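Each of 60 sets of 4 or 5 libraries (10 genes in 6 groups) was examined for a library far from the others, and 5 were found, where chance gives about 1 in 20 sets, that is about 3. Under the spleen label at 14 days, replicate 1 read 85.0 for Gzmk against 6.27 to 16.1 in the other libraries and 82.2 for Ifng against 16.6 to 32.9. In the same group replicate 4 read 39.6 for Gzmb against 79.9 to 89.7, and replicate 2 read 125 for Ncr1 against 150 to 158. Under the lymph node label at 3 days, replicate 2 read 1496 for Klrb1c against 2305 to 2455.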

How the results depend on the processing

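The count of genes called stayed at 0 of 10 in the 6 comparisons with untreated mice under pseudocounts of 0.1 and 5, no filter, quantile normalisation, the replicate block, edgeR and DESeq2. Of 1 call each, Gzmb at 3 days in spleen-labelled tissue came with library weights and with the rule of an unadjusted p of at most 0.05 and a fold change of at least 1.5. That rule also gave 1 call for Ifng at 1 day in lymph node-labelled tissue, and a fit of only the 2 groups compared gave 1 for Klrb1c there. The adipocyte covariate, added after the data were seen, gave 2 calls at 1 day (Prf1 and Nkg7) and 2 for 14 days against 1 day (Nkg7 and Klrb1c) in spleen-labelled tissue. For 14 days against 3 days under that label, library weights and the unadjusted rule each gave 1 call (Gzmb). Leaving out each replicate in turn gave 0 to 1 calls at 1 day in spleen-labelled tissue (Eomes without NAM 1 day replicate 5) and 0 to 1 at 3 days (Gzmb without NAM 3 days replicate 1), and 0 in all other comparisons. The cause of these differences was not tested. In the paired fit with the replicate block 0 of 10 genes were called in each comparison, and the labels do not say that the numbers pair the samples. The block also ended the calls of Stat4, Srgn and Fcgr3 at 1 day in lymph node-labelled tissue. Of the pathway changes described, those of Tox, Ikzf3, Runx3 and Cxcl10 at 1 day in spleen-labelled tissue passed the rule with the fold of 1.5.

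Fold changes near 0 on the log2 scale changed sign in some settings, and none that did was called in either. Library weights moved Tbx21 at 1 day to 0.0020, Gzma at 3 days to 0.034, Prf1 at 3 days to 0.075, Prf1 at 14 days to 0.084 and Tbx21 at 14 days to 0.024 in spleen-labelled tissue. Library weights moved Gzmk at 3 days to -0.038 and Gzmk at 14 days to -0.19 in lymph node-labelled tissue. The adipocyte covariate moved Tbx21 at 1 day to 0.14, Ncr1 at 1 day to 0.018, Gzma at 3 days to 0.028, Prf1 at 3 days to 0.091, Prf1 at 14 days to 0.11, Nkg7 at 14 days to 0.044 and Tbx21 at 14 days to 0.086 in spleen-labelled tissue. The adipocyte covariate moved Prf1 at 14 days to -0.0019 in lymph node-labelled tissue. edgeR moved Gzma at 3 days to 0.036, Gzmk at 3 days to -0.044, Ncr1 at 3 days to 0.0066 and Gzmk at 14 days to -0.17 in lymph node-labelled tissue. DESeq2 moved Gzma at 3 days to 0.039, Gzmk at 3 days to -0.034, Ncr1 at 3 days to 0.0095 and Gzmk at 14 days to -0.16 in lymph node-labelled tissue. The replicate block moved Prf1 at 3 days to -0.013 and Prf1 at 14 days to -0.030 in lymph node-labelled tissue. Quantile normalisation moved Gzmb at 14 days to 0.011 in lymph node-labelled tissue.

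Other uncalled values changed sign when 1 replicate was left out. At 1 day in spleen-labelled tissue these were Gzmb from -0.23 to 0.14, Gzmk from -0.64 to 0.11, Prf1 from -0.058 to 0.16, Tbx21 from -0.19 to 0.073 and Ncr1 from -0.063 to 0.042. At 3 days in spleen-labelled tissue these were Gzma from -0.17 to 0.028, Prf1 from -0.095 to 0.059, Nkg7 from -0.019 to 0.15, Ifng from -0.11 to 0.31 and Klrb1c from -0.026 to 0.18. At 14 days in spleen-labelled tissue these were Gzma from -0.22 to 0.0063, Gzmb from -0.13 to 0.16, Prf1 from -0.079 to 0.075, Nkg7 from -0.14 to 0.0072, Ifng from -0.18 to 0.39, Eomes from -0.055 to 0.15 and Tbx21 from -0.094 to 0.082. At 1 day in lymph node-labelled tissue these were Gzma from -0.51 to 0.045, Gzmk from -0.30 to 0.76, Prf1 from -0.25 to 0.16, Nkg7 from -0.016 to 0.39, Eomes from -0.15 to 0.034 and Ncr1 from -0.28 to 0.15. At 3 days in lymph node-labelled tissue these were Gzma from -0.17 to 0.25, Gzmk from -0.12 to 0.66, Prf1 from -0.081 to 0.15 and Ncr1 from -0.18 to 0.22. At 14 days in lymph node-labelled tissue these were Gzmb from -0.15 to 0.080, Gzmk from -0.22 to 0.55, Prf1 from -0.098 to 0.13, Eomes from -0.15 to 0.097 and Ncr1 from -0.13 to 0.034.

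The changes of pathway genes described in the report kept their direction in every setting run. Over the same settings and leave-outs the count of all rows called against untreated libraries ran from 1497 to 4005 at 1 day (3030 in the test reported), from 144 to 4722 at 3 days (1013) and from 0 to 204 at 14 days (0) in spleen-labelled tissue. With lymph node labels these counts ran from 66 to 894 (221), from 85 to 615 (226) and from 31 to 630 (144). The difference between the labels was called for 0 of 10 genes in every setting run. Depth limits Gzmk most, with as few as 1 read in a library.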
